A study of Mus musculus with 10 samples.

Results

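Keratins 6a, 6b, 16 and 17 are the keratins that epidermal cells switch on upon wounding and other stress, and their mRNA levels were followed here in cultured mouse keratinocytes. The members are the genes Krt6a, Krt6b, Krt16 and Krt17, found as the probe sets that the array annotation gives to 1 of these symbols alone, which gave 7 probe sets of 45101 and 4 genes of 18194. Krt6a has 3 probe sets, Krt17 has 2, and Krt6b and Krt16 have 1 each. A further probe set (1427841_at) carries the symbols of both Krt17 and Krt14 and was left out. Among the protein-coding genes of the RefSeq table (GRCm38.p6) Krt6b, Krt6a and the basal keratin gene Krt5 follow one another on chromosome 15, and Krt14, Krt16, Krt17 and Krt42 follow one another on chromosome 11. Krt6a and Krt6b are close copies, so the probe sets of one may also take up mRNA of the other.

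Keratin filaments are built from pairs of a type I and a type II keratin. Krt6a and Krt6b encode type II keratins, and Krt16 and Krt17 encode type I keratins that pair with them. In resting skin they are made mainly in the hair follicle, nail and other appendages, in the epidermis between follicles they appear upon injury, and keratinocytes put into culture are activated in a similar way and express them. C/EBP and AP-1 proteins are families of transcription factors that act in keratinocyte differentiation.

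The cells were primary keratinocytes of newborn mice, labelled FVB in every sample, and mRNA was measured on Affymetrix Mouse Genome 430 2.0 arrays in 4 conditions. The 2 A-C/EBP arrays are of cells differentiated at 0.4 mM calcium for 2 days that expressed A-C/EBP, a dominant negative inhibitor of the C/EBP factors, from a transgene held off by doxycycline until 24 h after seeding, and by the study's methods they came from transgenic mice, whereas the FVB mice it names were wild type. The 2 5-AZA arrays are of cells given 1 µM 5-azacytidine, a DNA methylation inhibitor, and the same calcium for 2 days. By the study's methods 5-azacytidine was added 6 h after seeding, whereas the sample labels put the treatment after a day in culture. The 4 differentiated arrays had 0.4 mM calcium for 2 days with neither agent, and the 2 undifferentiated arrays were kept at 0.05 mM calcium. Whether the differentiated and undifferentiated cells carried the silent transgene, and which promoter drove it, is not given in the sources used here. Nothing says that the replicates came from separate cultures, so the p-values cover only how these samples differ among themselves, and part of that may be technical. Precision is limited by there being few arrays. In such bulk samples fewer cells of a type and less RNA per cell cannot be told apart.

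All values are log2 RMA values, where a step of 1 is a doubling, and the median of an array lay between 4.64 and 4.78. Differentiated replicate 2 stood apart with a highest value of 13.67, against 14.42 to 14.58 on the other arrays. A-C/EBP replicate 2 had the highest hybridization controls (11.34, next 10.59), the highest Xist (9.93, next 8.27) and the lowest Eif2s3y (3.74, next 5.40). All 11 keratinocyte markers measured, among them Krt5 and Krt14, were above the array median on every array. Of 9 melanocyte markers, 7 were too, with Dct at 9.96 to 11.33. Of 14 hair follicle markers, 5 were above it on every array, namely Sox9, Msx2, Tchh, Krt71 and Gata3. Lgr5, Shh, Krt25 and Krt28 were among those below it on all arrays. The mean level of the melanocyte markers was 7.38 to 7.89 with A-C/EBP, 7.83 to 7.84 with 5-AZA, 7.22 to 7.56 in differentiated and 7.46 to 7.64 in undifferentiated cells, and that of the 12 fibroblast markers, 7 of them above the array median on every array, was 4.80 to 5.17, 5.43 to 5.89, 5.02 to 5.83 and 4.85 to 5.57 in the same order. Of 10 immune cell markers 5 were above it on every array, namely Cd3e, Csf1r, Cd68, Lyz2 (6.83 to 9.18) and Tyrobp. Ptprc, Cd207, Itgam and Cd74 were below it on all arrays, and Cd3d was above it on 1. The part of such cells in the results below was not tested.

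Both type II and type I members were strongly expressed in every condition. On the gene mean, Krt6a lay between 13.30 and 14.13, Krt6b between 10.02 and 13.31, Krt16 between 12.29 and 13.60 and Krt17 between 10.66 and 11.31. Levels of different genes are not set against each other, since each probe set has its own response. The 3 Krt6a probe sets were within 0.19 to 0.84 of the highest value of their array, and whether higher Krt6a levels could still be measured was not tested. The Krt17 probe set 1423227_at was within 0.72 to 1.25 of it, and that of Krt16 within 0.94 to 1.81. The Krt17 probe sets lay far apart, with 1423227_at at 12.95 to 13.68 and 1420193_at at 8.23 to 8.95, and the gene mean averages them.

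**Figure D1:**
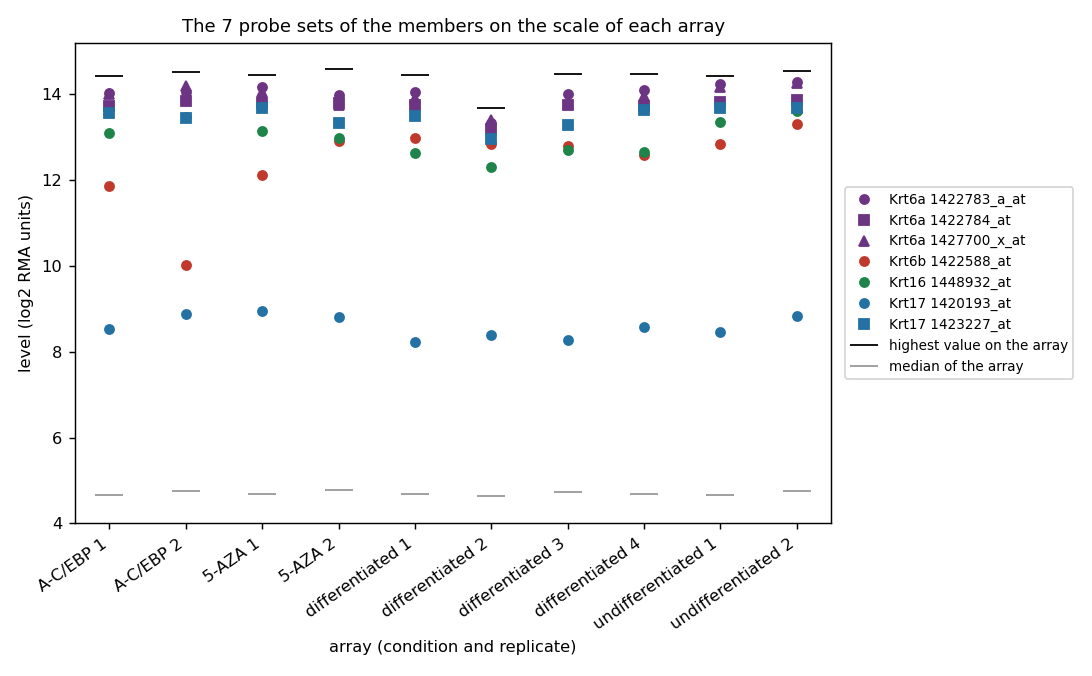
Level (log2 RMA units) of each of the 7 probe sets on each of the 10 arrays, with the highest value and the median of the array as dashes. The Krt6a probe sets lie close under the highest value throughout, differentiated replicate 2 has the lowest maximum (13.67), and the Krt6b probe set is lowest on both A-C/EBP arrays.

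Upon differentiation, Krt16 mRNA fell and the other members did not pass the test. Krt16 was at 12.64, 12.29, 12.71 and 12.65 on the differentiated arrays, against 13.35 and 13.60 on the undifferentiated arrays. Every differentiated array was below both undifferentiated arrays. The difference was -0.90 ± 0.15 on the log2 scale (SE, 95% interval -1.24 to -0.57, limma adjusted p = 0.00263), a 1.87-fold lower level in differentiated cells. Of the 4 members 1 fell and 3 did not pass, beside 9.13% of all genes that fell and 6.64% that rose. Krt16 has 1 probe set, so the limma fit over all probe sets used the same values and is no second measurement. There its adjusted p was 0.00505, where 10.6% of probe sets were called. The mean level of the 11 keratinocyte markers was 10.25 to 10.74 in differentiated cells and 11.22 to 11.27 in undifferentiated cells. These markers include the basal cell genes Krt5 and Trp63, which themselves fell upon differentiation. Their mean is thus no measure of the share of keratinocytes alone, and its part in the Krt16 difference was not tested.

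Krt6a was at 13.90, 13.30, 13.85 and 13.93 in differentiated cells, against 14.07 and 14.13 in undifferentiated cells. The conditions did not overlap, but the difference of -0.36 ± 0.17 (SE, 95% interval -0.73 to 0.02) had an adjusted p of 0.219. With 3 probe sets the direction was the same in each, at -0.38 for 1422783_a_at, -0.23 for 1422784_at and -0.45 for 1427700_x_at. The lowest Krt6a value came from differentiated replicate 2, the array with the lowest maximum. Arrays did not overlap for 2 of the 4 members, Krt6a and Krt16, and for 34.1% of all genes.

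Krt6b, the other type II member, was at 12.98, 12.84, 12.79 and 12.59 in differentiated cells and at 12.83 and 13.31 in undifferentiated cells. These overlapped, and the difference was -0.27 ± 0.42 (SE, 95% interval -1.21 to 0.66, adjusted p = 0.810). Krt17 was at 10.86, 10.66, 10.78 and 11.10 in differentiated cells, against 11.07 and 11.26 in undifferentiated cells. Only differentiated replicate 4 reached the undifferentiated values, and the difference was -0.31 ± 0.13 (SE, 95% interval -0.61 to -0.01, adjusted p = 0.175). The median over the 4 members was -0.33 on the log2 scale, beside -0.01 over all genes. The members lie far above the median of each array, and the part of the arrays' upper range in this median was not tested. After quantile normalization, which gives all arrays the same spread of values, Krt6a differed by -0.20, Krt6b by -0.20, Krt16 by -0.83 and Krt17 by -0.24.

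**Figure D2:**
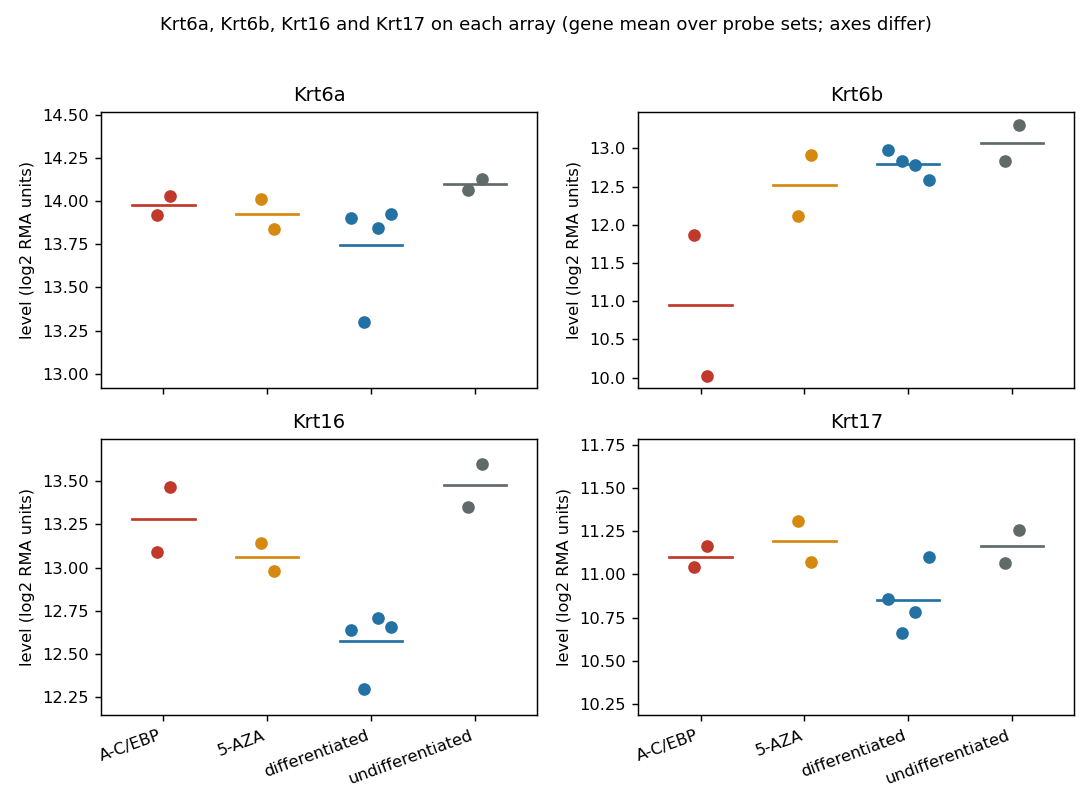
Level (log2 RMA units) of each member on each array, by condition, with 1 point for an array and a line for the mean; the vertical axes differ. Krt16 is lowest in the 4 differentiated arrays, Krt6b is lowest in the 2 A-C/EBP arrays, which are themselves far apart, and the Krt6a and Krt17 levels span less than 1 unit.

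With A-C/EBP, Krt16 mRNA rose relative to differentiated cells, while Krt6b was lower by a larger amount that missed the threshold. Krt16 was at 13.09 and 13.47 on the A-C/EBP arrays, against 12.64, 12.29, 12.71 and 12.65 on the differentiated arrays. Both A-C/EBP arrays were above all differentiated arrays. The difference was 0.71 ± 0.15 (SE, 95% interval 0.37 to 1.04, adjusted p = 0.0455), a 1.63-fold higher level with A-C/EBP. The Krt16 call passed in 9 of 23 other settings, at adjusted p between 0.0228 and 0.426, and it was lost when any array but A-C/EBP replicate 1 was left out. Without A-C/EBP replicate 2 the Krt16 difference was 0.52 (adjusted p = 0.426). On its probe set Krt16 had an adjusted p of 0.0788, where 0.999% of probe sets were called. The mean level of the keratinocyte markers, basal cell genes among them, was 10.99 to 11.08 with A-C/EBP and 10.25 to 10.74 in differentiated cells. Its part in the Krt16 difference was not tested.

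Krt6b was at 11.87 and 10.02 with A-C/EBP, against 12.98, 12.84, 12.79 and 12.59 in differentiated cells. Both A-C/EBP arrays were below every array of the other conditions, and replicate 2 was much lower than replicate 1. The difference was -1.85 ± 0.42 (SE, 95% interval -2.79 to -0.92), a 3.61-fold lower level with A-C/EBP, at an adjusted p of 0.0562. It rests largely on A-C/EBP replicate 2, the array with the high hybridization controls and Xist. Without that array the Krt6b difference was -0.93 (adjusted p = 0.334), and without A-C/EBP replicate 1 it was -2.78 (adjusted p = 0.00206). With the hybridization controls as a covariate it was -1.60 (adjusted p = 0.0765).

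Krt6a, the close copy of Krt6b, was at 13.92 and 14.03 with A-C/EBP, against 13.90, 13.30, 13.85 and 13.93 in differentiated cells. These overlapped, and the difference was 0.23 ± 0.17 (SE, 95% interval -0.14 to 0.60, adjusted p = 0.647).

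Krt17 was at 11.04 and 11.16 with A-C/EBP, against 10.86, 10.66, 10.78 and 11.10 in differentiated cells, with overlap. The difference was 0.25 ± 0.13 (SE, 95% interval -0.05 to 0.55, adjusted p = 0.484). Of the 4 members 1 rose with A-C/EBP and 3 did not pass, beside 1.49% of all genes that rose and 0.583% that fell. Arrays did not overlap for 2 members, Krt6b and Krt16, and for 21.4% of all genes. The median over the members was 0.24, beside 0.01 over all genes, and the part of the arrays' upper range in it was not tested. After quantile normalization Krt6a differed by 0.08, Krt6b by -1.91, Krt16 by 0.66 and Krt17 by 0.21.

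With 5-AZA none of the 4 members passed the limma test, beside 0.17% of all genes that rose and 0.115% that fell. At an unadjusted p under 0.05 there were 2 members by limma, Krt16 and Krt17, beside 9.1% of all genes, and 1 by the methods' t-test, beside 6.63% of all genes. The study's methods name a two-tailed test of this kind without tying it to single genes of the arrays. Krt16 was at 13.14 and 12.98 with 5-AZA, against 12.64, 12.29, 12.71 and 12.65 in differentiated cells. Both 5-AZA arrays were above all differentiated arrays, by 0.49 ± 0.15 on average (SE, 95% interval 0.15 to 0.83, adjusted p = 0.317). Krt16 was the only member without overlap, which held for 16.4% of all genes.

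Krt17 was at 11.31 and 11.07 with 5-AZA, against 10.86, 10.66, 10.78 and 11.10 in differentiated cells. These overlapped, and the difference was 0.34 ± 0.13 (SE, 95% interval 0.04 to 0.64, adjusted p = 0.474). Its probe sets differed in size, at 0.51 for the dimmer 1420193_at, which did not overlap (adjusted p = 0.460), and at 0.17 for the brighter 1423227_at, which did. Of all probe sets 0.0488% were called. Krt6a was at 14.01 and 13.84 with 5-AZA, a difference of 0.18 ± 0.17 (SE, 95% interval -0.19 to 0.55, adjusted p = 0.824). Krt6b was at 12.12 and 12.92, the 5-AZA replicates being far apart, and the difference was -0.28 ± 0.42 (SE, 95% interval -1.21 to 0.65, adjusted p = 0.908). The median over the members was 0.26, beside 0.04 over all genes, and the part of the arrays' upper range in it was not tested. After quantile normalization Krt6a differed by 0.01, Krt6b by -0.34, Krt16 by 0.41 and Krt17 by 0.28.

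**Figure D3:**
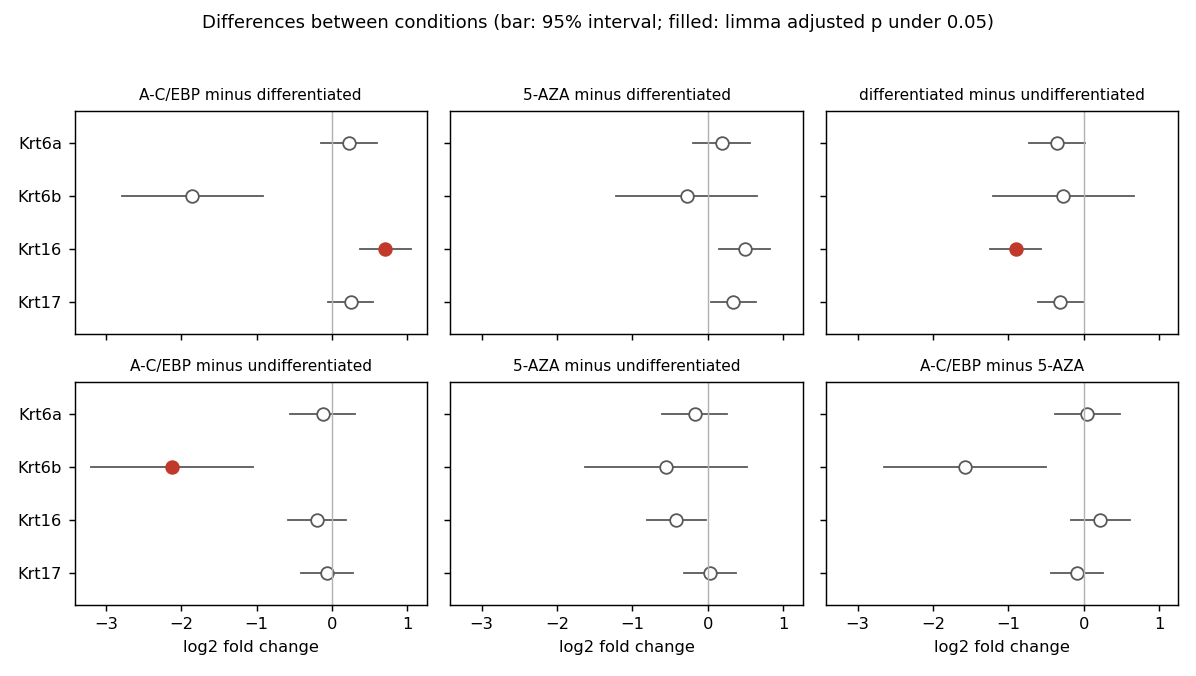
Log2 fold change of each member with its 95% interval in 6 comparisons of conditions, from 1 limma fit over all 10 arrays; a positive value means higher in the condition named first, and filled points have an adjusted p under 0.05. Krt16 is filled for differentiated minus undifferentiated (-0.90) and A-C/EBP minus differentiated (0.71), and Krt6b for A-C/EBP minus undifferentiated (-2.13).

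The differentiated arrays serve in all of these comparisons, so the opposite signs of Krt16 upon differentiation and with either agent share them. Set against undifferentiated cells, Krt16 differed by -0.20 with A-C/EBP (95% interval -0.59 to 0.19, adjusted p = 0.597) and by -0.42 with 5-AZA (95% interval -0.81 to -0.03, adjusted p = 0.156). The mean Krt16 level was lowest in differentiated cells at 12.57, followed by 5-AZA at 13.06, A-C/EBP at 13.28 and undifferentiated cells at 13.48, and no step between neighbours in that order passed the test.

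Krt6b had another order, with a mean of 10.95 with A-C/EBP, 12.52 with 5-AZA, 12.80 in differentiated and 13.07 in undifferentiated cells. With A-C/EBP it fell by 2.13 relative to undifferentiated cells (SE 0.48, 95% interval -3.20 to -1.05, adjusted p = 0.0135), a 4.36-fold lower level, where 8.01% of all genes fell. This call held in 20 of 23 other settings. Without A-C/EBP replicate 2 the value was -1.20, and without undifferentiated replicate 2 it was -1.88 and did not pass (adjusted p = 0.0910). The step from 5-AZA to A-C/EBP was -1.57 (A-C/EBP minus 5-AZA, 95% interval -2.65 to -0.50, adjusted p = 0.132), where 3.19% of all genes were called in either direction. With 5-AZA Krt6b differed from undifferentiated cells by -0.55 (95% interval -1.63 to 0.52, adjusted p = 0.554). Between 5-AZA and undifferentiated cells 0 of the 4 members were called, beside 16.1% of all genes in either direction, and 1 member, Krt16, had an unadjusted p under 0.05 by limma, near the background of 27% of all genes, and 0 by the methods' t-test, beside 16.1%.

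Krt6a and Krt17 had narrow orders, and the Krt6a probe sets and the brighter Krt17 probe set lay close under the array maximum. The condition means spanned 13.74 to 14.10 for Krt6a and 10.85 to 11.19 for Krt17, with the differentiated mean the lowest for both genes. For Krt6a that mean includes the low value of differentiated replicate 2. With single arrays left out, Krt6a relative to differentiated cells came down to 0.08 with A-C/EBP and 0.03 with 5-AZA. In the 3 comparisons that leave out the differentiated arrays the differences of both genes lay between -0.17 and 0.05, and no step between neighbouring means passed the limma test.

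Across the 10 arrays Krt16 followed Krt6a (Pearson r = 0.82) and Krt17 (r = 0.80), and Krt6a followed Krt17 (r = 0.80). Without differentiated replicate 2, the array with the lowest maximum, these were 0.84, 0.69 and 0.70. Krt6b did not follow the others, with r = -0.19 with Krt6a, -0.34 with Krt16 and -0.29 with Krt17. Without A-C/EBP replicate 2 the Krt6b values were -0.03, 0.04 and -0.20. These numbers describe 10 arrays in 4 conditions, and the points share the scale of each array.

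The genes most like each member were sought among 9097 genes at or above the median level, by Pearson r over the 10 arrays. The highest r of so many genes are extremes by selection. For Krt6a they were Actg1, Kdm4c, Eef1a1, Rpl4 and Rdh13 (r = 0.95 to 0.90), and without differentiated replicate 2 r was 0.69, 0.65, 0.44, 0.78 and 0.30. Actg1 encodes a cytoplasmic actin, Eef1a1 a translation elongation factor and Rpl4 a ribosomal protein, and these are of very high level themselves. For Krt6b they were Slc15a3, Them5, Ugcg, Fabp5 and Bst1 (r = 0.94 to 0.91). Without A-C/EBP replicate 2, which held the lowest Krt6b value, r was 0.83, 0.68, 0.71, 0.66 and 0.56. Ugcg makes glucosylceramide and Fabp5 is the epidermal fatty acid binding protein. For Krt16 they were Egfl7, Arhgef4, Dicer1, Capn15 and Lrrc8e (r = 0.93 to 0.91), and for Krt17 Micall1, Egr1, Ring1, Cog1 and Ankrd17 (r = 0.94 to 0.90). After taking out the condition means, r was 0.83, 0.46, 0.65, 0.43 and 0.63 for the Krt16 genes. For the Krt17 genes it was then 0.94, 0.86, 0.85, 0.93 and 0.86.

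The other keratins are given beside the members. Their lists, and the gene lists further below, were chosen with earlier results of these data known, so the shares called in them are no independent evidence. Upon differentiation Krt5, the type II keratin of basal cells, fell by 0.75 (adjusted p = 0.0291), and its type I partner Krt14 had a difference of -0.05. Krt1 and Krt10, the pair of the early suprabasal layers, had differences of -1.29 and -1.21 that did not pass (adjusted p = 0.0669 and 0.0757). Over all genes 6.64% rose and 9.13% fell. Of 6 simple epithelial keratins measured, 4 rose, namely Krt8 (4.60), Krt18 (4.34), Krt7 (2.93) and Krt19 (2.63). Of 9 suprabasal keratins 2 rose, Krt4 (2.37) and Krt80 (2.04). Of 24 keratins mostly of hair follicle, nail and other appendages 1 rose, Krt79 (4.61), and 1 fell, Krt42 (-0.66), the gene next to Krt17. Krt75, a hair follicle companion layer keratin, had a difference of 0.37 (adjusted p = 0.367).

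With A-C/EBP, where 1.49% of all genes rose and 0.583% fell, Krt15 of the 3 basal keratins rose by 1.85 (adjusted p = 0.00482). Krt5 and Krt14 had differences of 0.39 and 0.19 that did not pass. The suprabasal keratins Krt77 and Krt4 rose, by 2.61 and 2.58, and 7 of the 9 did not pass, among them Krt1 (1.79, adjusted p = 0.0642) and Krt10 (1.07, adjusted p = 0.263). Of the 24 keratins mostly of appendages Krt32 rose by 0.88, and the 6 simple epithelial keratins had differences between -0.28 and 1.11 that did not pass. Krt6b was thus the member of these keratin groups with the lowest fold change with A-C/EBP (-1.85), but it did not pass (limma adjusted p = 0.0562). Its value rests largely on A-C/EBP replicate 2 and was -0.93 without that array. With 5-AZA the keratins of these lists did not pass, at differences between -1.89 and 1.79, beside 0.17% of all genes that rose and 0.115% that fell.

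**Figure D4:**
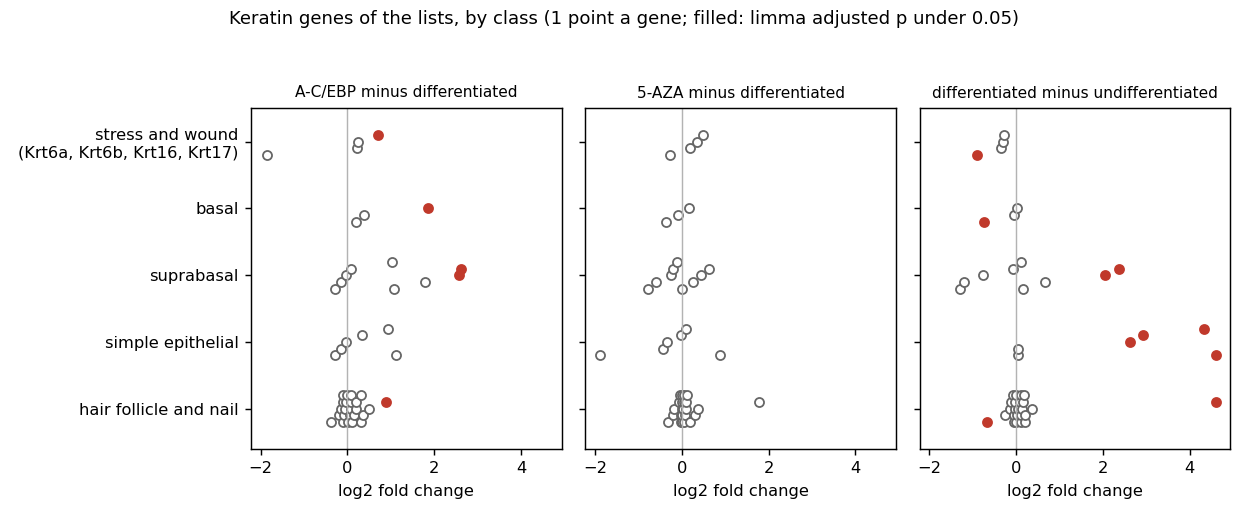
Log2 fold change of the keratin genes in the lists, by class, in 3 comparisons, with 1 point for a gene and filled points at an adjusted p under 0.05; points are spread vertically for legibility only. Krt6b lies at the far left with A-C/EBP (-1.85) and is not filled, and 4 simple epithelial keratins lie far to the right upon differentiation.

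Among genes known to act on keratinocyte activation, few were called upon differentiation, and in the lists of ligands, receptors and transcription factors the shares were not far from the 6.64% of all genes that rose and the 9.13% that fell. Of 20 ligands measured 2 rose and 2 fell. Btc (1.22) and Tgfa (0.91), which encode ligands of the EGF receptor, rose, while Tslp (-4.21), an epithelial cytokine, and Epgn (-0.97), another such ligand, fell. Of 18 receptors Il1rap, a subunit of the interleukin 1 receptor, rose by 1.29 and Il22ra1 fell by 0.76. Of 26 transcription factors Atf3 (1.20) rose, and Gli2 (-1.57), Trp63 (-1.42) and Fosl1 (-1.03) fell. Trp63 encodes the basal cell factor p63 and Fosl1 an AP-1 subunit. Of 22 other barrier stress genes Defb4, Slpi and Mmp9 rose, by 3.77, 2.71 and 2.18, and Stfa3, 1 of several near-identical stefin genes, fell by 4.39.

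With A-C/EBP 6 of the 20 ligands rose and the other 14 did not pass, beside 1.49% of all genes that rose and 0.583% that fell. The list was chosen with earlier results of these data known, so this share is no independent evidence about ligands. Among the ligands that rose were Ccl20 (2.95), a chemokine, Il1rn (1.47), the interleukin 1 receptor antagonist, Il33 (2.08) and Tslp (2.96). The median over the ligands was 0.24. Of the receptors Il6st (0.63) rose, of the transcription factors Nfkbia (1.25), the inhibitor of NF-kB, rose, and of the barrier stress genes Ptgs2 fell by 1.25, while the median over these 22 was -0.78. The transcription factor genes Cebpa (0.80, adjusted p = 0.125), Cebpb (0.24), Jun (-0.09), Nfe2l2 (-0.34) and Stat3 (0.45) did not pass with A-C/EBP, nor did they upon differentiation or with 5-AZA.

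Of 18 genes of the keratin network and of known keratin 17 partners, Ppl, which encodes the plakin periplakin, rose upon differentiation by 1.26 and with A-C/EBP by 1.12. Pnn fell by 0.97 upon differentiation. Over all genes 6.64% rose and 9.13% fell upon differentiation, and 1.49% rose with A-C/EBP. With 5-AZA 0 of the 146 genes in all these lists passed by limma, of which 21 had an unadjusted p under 0.05, and 10 by the methods' t-test, beside the 9.1% and 6.63% of all genes given above.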

How the data were processed

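By the submitters' processing notes, the authors deposited log2 values computed by RMA within Affymetrix Expression Console (versions are not given in the sources used here), 1 value per probe set. They were used without a second normalization. Probe sets with 1 gene symbol were averaged per gene. All 10 arrays entered 1 fit of limma 3.58.1 (R 4.3.3) with a mean per condition and 6 residual degrees of freedom. Benjamini-Hochberg adjustment ran over 18194 genes, or over 45037 probe sets, and "rose" and "fell" stand for an adjusted p under 0.05. The fit was tested on simulated data with independent normal noise for each gene and no effects of whole arrays. There 80 to 83 of 100 changes of 1 log2 unit were recovered, and 8 to 12 unchanged genes were called. The simulation does not cover calls that hinge on a single unusual array. The members and lists were chosen with earlier results of these data known. Genes are named by a rule: the members, Krt5, Krt14, Krt1, Krt10, Krt75, Cebpa, Cebpb, Jun, Nfe2l2, Stat3, from each list at most 4 called genes, those of lowest adjusted p, and the 5 genes most like each member. Replicate numbers are those of the sample titles, since both A-C/EBP descriptions carry the same number. The alternatives were other scalings, probe set rules, filters, tests and sample sets, and each array left out in turn. A shift by the 200 brightest probe sets and the comparisons between the further conditions were added after seeing the data. The A-Fos samples were not analysed here.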

Additional observations from a re-analysis of the deposited data

Results flagged for a closer look

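Among the 4 differentiated arrays the value of Krt6a in replicate 2, 13.30, stood apart from the others at 13.85 to 13.93. The gap was 0.873 of the whole range, above Dixon's 95% critical value for 4 samples. The Krt6a probe sets 1422783_a_at, at 13.32 on that array, and 1422784_at, at 13.19, stood apart in the same way. In all, 11 genes and probe sets were tested for this, and chance flags about 1 in 20 groups. The 3 values are of the same gene and array, which also had the lowest maximum (13.67), and the part of the array's upper range in them was not tested.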

How the results depend on the processing

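Over 23 alternatives in each of the 3 main comparisons, the members' fold changes gave 276 values, of which 254 kept direction and side of the threshold, 15 lost the call, 6 gained it and 1 turned direction. The cause of these changes was not tested, and 2 arrays in a condition limit the precision. Krt16 upon differentiation kept its call in 22 settings, between -1.03 and -0.78, and lost it in the methods' t-test (-0.90, adjusted p = 0.0648).

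Krt16 with A-C/EBP lost its call with only the compared conditions (0.71), differentiated arrays 1 and 2 only (0.82), differentiated arrays 3 and 4 only (0.60), hybridization controls as a covariate (0.66) and the methods' t-test (0.71). Leaving out single arrays gave 0.52 to 0.89. Krt6b with A-C/EBP gained a call with the dimmest 40% of genes left out, an intensity trend and the brightest probe set per gene (-1.85 in each), with quantile normalization (-1.91), and after a shift to a common mean of the 200 brightest probe sets (-1.93), and single arrays left out gave -2.78 to -0.93. Krt6b with 5-AZA relative to differentiated cells had -0.68 to 0.12 when single arrays were left out, turning without 5-AZA replicate 1.

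Between the further conditions, values near 0 turned. With the brightest probe set, Krt17 was -0.17 for 5-AZA minus undifferentiated and 0.0029 for A-C/EBP minus 5-AZA, and Krt6a was -0.041 for A-C/EBP minus 5-AZA, or -0.027 without _x_at and _s_at probe sets. With the shift by the 200 brightest probe sets Krt17 was -0.000827 for 5-AZA minus undifferentiated. With single arrays left out Krt17 ranged from -0.089 to 0.146 there, from -0.206 to 0.0298 for A-C/EBP minus 5-AZA and from -0.154 to 0.0359 for A-C/EBP minus undifferentiated, and Krt6a from -0.0357 to 0.134 for A-C/EBP minus 5-AZA. Krt6b for A-C/EBP minus undifferentiated lost its call with only the compared conditions and in the methods' t-test (-2.13), and without undifferentiated replicate 2.

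The number of genes called was 377 with A-C/EBP, 52 with 5-AZA and 2870 upon differentiation. Single arrays left out gave 56 to 366, 2 to 57 and 1435 to 2893. With 5-AZA it was 24 after median centring, 24 with only the compared conditions and 80 with the hybridization covariate. Differentiated arrays 1 and 2 only gave 120, 17 and 1864 genes, and arrays 3 and 4 only gave 80 with A-C/EBP and 0 by limma with 5-AZA, where 887 had an unadjusted p under 0.05. The methods' t-test gave 864 upon differentiation and 0 in both other comparisons, with 1868 and 1206 at an unadjusted p under 0.05. A difference above 0.5 with no test held for 1226 genes with A-C/EBP and 724 with 5-AZA.

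The labels do not say that a replicate number marks a shared animal or batch. Across genes the replicate 1 minus 2 differences of all pairs of conditions correlated at r = 0.23 to 0.47, and 2 numbers per comparison are too few to settle whether they pair the samples. With the replicate block 773 genes were called with A-C/EBP and 398 with 5-AZA, no call of a member changed in the main comparisons, and Krt6b with A-C/EBP was -1.96 (adjusted p = 0.0855).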
